A study of Macaca fascicularis with 80 samples.

Results

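Whole-blood RNA of 8 cynomolgus macaques (Macaca fascicularis) was compared between day 17 and day 14 of a dosing study. The comparison covers the interval from 7 to 10 days after the last of 3 doses of IL-15/IL-15Ra, the cytokine interleukin 15 complexed with its receptor alpha chain. Libraries were chosen by the day in their labels, which gave 16 of the 80 libraries of the series, 1 per animal on each day, and they were paired by animal number. The animals, 4 females and 4 males, had received escalating doses of 5, 10 and 15 µg/kg (days 0, 3 and 7 in that order), so that all of them carried the full course on both days. The labels give no strain or age, and no undosed animals were analysed. Any change with the passage of time alone, or with repeated bleeding, therefore cannot be told apart from the waning of the treatment. Values of day 0, taken at a labelled dose of 0, served as the reference level.

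IL-15 signals through a receptor that shares its beta and gamma chains with the interleukin 2 receptor, and is presented to neighbouring cells by the receptor alpha chain. It sustains natural killer cells and memory CD8 T cells and drives their expansion in blood. RNA of whole blood comes from granulocytes, monocytes, lymphocytes, platelets and young red cells together, so a shift in the number of cells of a type and a shift in the RNA per cell cannot be told apart. Gene identifiers are not paired with names in the files, and the gene table used for names lists no Ensembl identifiers, so none of the 38550 could be looked up. Neither the label whole blood nor any cell type could be checked against marker genes, and changes are described by gene set, level, animal and day, with 4 identifiers as examples.

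Libraries of day 14 held 17.1 to 24.5 M counts and those of day 17 held 22.3 to 28.95 M (M for mega), so day 17 was sequenced somewhat deeper. Of the day 14 libraries, 5 carry the run tag GL08 in their column names, while the other 3 and the 8 libraries of day 17 carry GL07. The GL08 libraries of day 14 come from the 4 females and from male 39100, and the GL07 ones from males 39102, 39103 and 39104. Run tag and sex thus largely overlap in this comparison. Libraries of 1 day differed by far more than counting noise, with a smallest chi-square per degree of freedom of 41.7 over 56 library pairs, so none was a repeat of another.

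The first question was how far the blood profile still moved in these 3 days. Between days 14 and 17 a rise was called for 1481 genes and a fall for 1735, together 3216 of 16054 genes tested or 20%, by edgeR's quasi-likelihood test with animal as a block and a Benjamini-Hochberg adjusted p under 0.05. The shares of all genes tested were 9.23% higher and 10.8% lower. Beyond 2-fold lay 547 of the 1735 falling genes (31.5%) and 198 of the 1481 rising genes (13.4%). Beyond 4-fold, 111 genes fell and 30 rose. Over all genes tested, called or not and in either direction, 1775 lay beyond 2-fold (11.1%) and 238 beyond 4-fold. The share of rising genes beyond 2-fold was thus close to that of all genes. The median log2 fold change was -0.72 among the falling genes, 0.61 among the rising ones and 0.06 over all genes tested. Which set moved more turns with the scaling, since the same genes had medians of -0.35 and 0.98 under library totals and of -0.66 and 0.67 with upper-quartile factors. The smallest adjusted p was 0.0104, so no gene lay far under the threshold. The split depends on the scaling, and with library totals in the place of TMM scaling 5247 genes rose and 699 fell. Without the animal block the count was 1889, of which 619 rose. In the second deposited table, which has other gene identifiers, 1748 genes rose (11.5%) and 1606 fell (10.6%), or 22% of 15218 tested.

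Agreement between animals restates the call, which was made by a paired test on the same animals, and is given as a description. Of the rising genes, 839 were higher in 8 of 8 animals and 556 in 7 of 8. Of the falling genes, 1014 were lower in 8 of 8 animals and 628 in 7 of 8. Over all genes tested, 6.65% were higher and 7.39% lower in all 8 animals. Full separation of the days was rare, since only 60 rising and 71 falling genes had the 8 libraries of one day entirely above those of the other, against 64 (0.399%) and 74 (0.461%) of all genes tested. For nearly all called genes the ranges of the 2 days therefore overlapped.

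Size of the change differed widely between animals. Levels are given as log2 CPM, that is counts per M of library on a log2 scale, scaled by trimmed-mean (TMM) factors. Among the genes called lower, the median log2 change was -1.30 in animal 39104, -0.96 in 39103, -0.95 in 39090, -0.77 in 39097 and -0.73 in 39102. It was -0.38 in animal 39098, -0.28 in 39095 and -0.14 in 39100. Among the genes called higher, medians ran from 0.97 in animal 39104 and 0.88 in 39090 down to 0.23 in 39100 and 0.22 in 39095. Medians of all genes tested stayed between -0.04 and 0.13 in the 8 animals. These medians restate the call, because the same libraries chose the genes, but they show that animals 39095, 39098 and 39100 moved least in both sets.

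**Figure D1:**
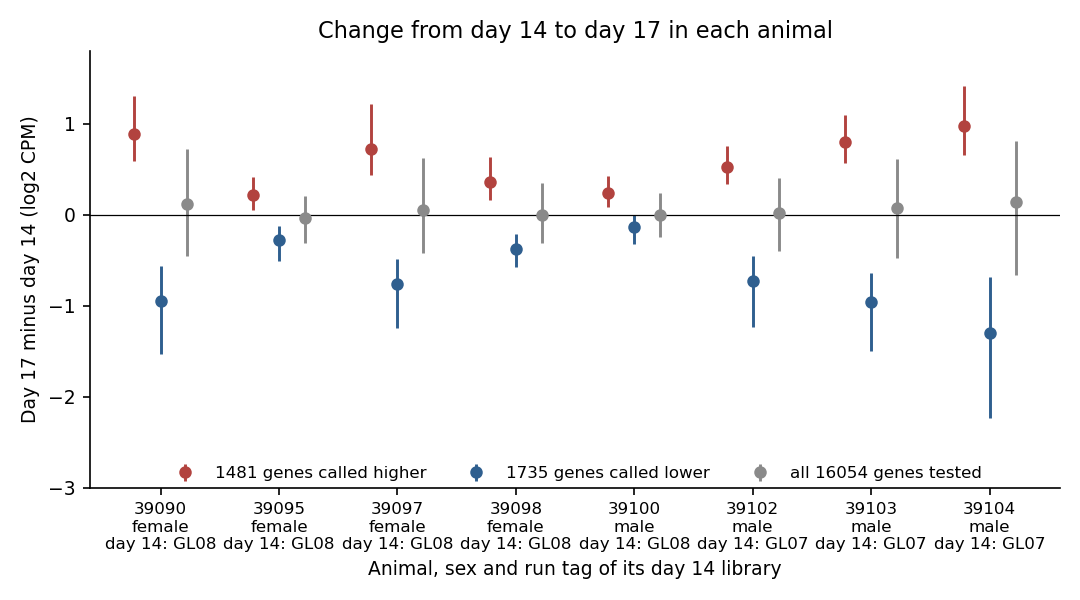
Median (points) and interquartile range (bars) of the log2 CPM change from day 14 to day 17 in each animal, for the 1481 genes called higher, the 1735 called lower and all 16054 tested. The called sets moved apart in every animal, by least in 39095, 39098 and 39100.

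The root mean square (RMS) change over all 16054 genes, a measure of how far a whole profile moved, gave a like order. It was 1.39 log2 units in animal 39104, 1.19 in 39090, 1.06 in 39097, 1.05 in 39103, 0.87 in 39102, 0.82 in 39098, 0.76 in 39095 and 0.66 in 39100. From day 17 to day 21, 4 days in place of 3, it was between 0.53 and 0.74 in the same animals. Between days 10 and 14, where run tags differ in every animal, it was 0.69 to 1.11, and in animals 39095, 39098, 39100 and 39102 it exceeded the value for days 14 to 17. Changes of 2 animals were positively correlated over genes in 28 of 28 animal pairs, with a median r of 0.20 and a range of 0.05 to 0.57. The highest r joined animals 39103 and 39104 and the lowest joined 39097 and 39100. Genes are not independent replicates, and these r values only describe how alike the animals were.

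Single animals decided how many genes passed the threshold. Leaving out animal 39102 took the count from 3216 to 0, and so did leaving out 39103. Leaving out 39090 gave 115 genes and leaving out 39097 gave 883. Without any 1 of the other animals it lay between 2282 and 3611. The smallest adjusted p was 0.0512 without 39102 and 0.0583 without 39103, and 5274 and 4857 genes still had an unadjusted p under 0.05, against 5975 with all animals. DESeq2 on all 8 animals called 2287 genes higher and 2629 lower. A joint fit of the 80 libraries, which pools the spread of 10 days, called 2535 genes higher and 2947 lower.

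**Figure D2:**
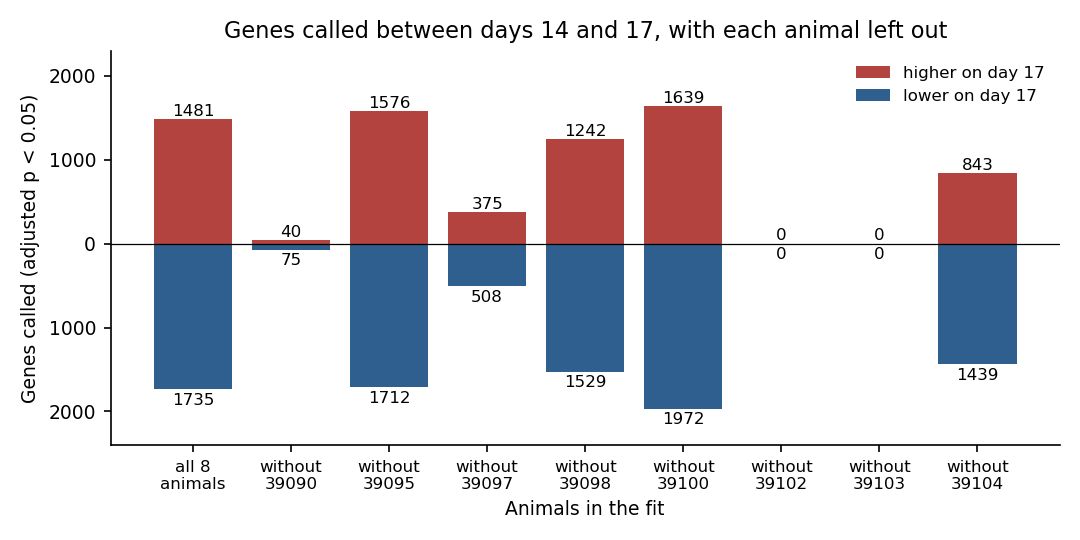
Genes called higher (above the line) and lower (below the line) on day 17 at an adjusted p under 0.05, with all 8 animals and with each animal left out in turn. Counts were 0 without 39102 or 39103 and 2282 or more in all without 39095, 39098, 39100 or 39104.

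Because run tags differed between the days in 5 animals, the change was also measured within 1 run. In the 3 males whose libraries of both days carry GL07, 231 genes rose and 770 fell, or 6.24% of genes tested (1.44% higher and 4.8% lower). In the other 5 animals edgeR called 0 genes (0%), with a smallest adjusted p of 0.086 and 3111 genes at an unadjusted p under 0.05. DESeq2 was not run on these subsets. Genes called in the 3 males were then read in the 5 animals that had no part in choosing them. In the fit of those 5 animals, 229 of the 231 rising genes (99.1%) were higher, where 53.9% of all genes were, and 752 of the 770 falling genes (97.7%) were lower, where 46.1% of all genes were. At an unadjusted p under 0.05, 153 of the 231 were higher and 565 of the 770 lower (66.2% and 73.4%), against 8.27% and 11.1% of all genes.

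Medians of the 770 falling genes in these 5 animals were -1.15 in 39090, -0.94 in 39097, -0.45 in 39098, -0.29 in 39095 and -0.07 in 39100. Medians of the 231 rising genes were 1.01 in 39090, 0.84 in 39097, 0.26 in 39098, 0.24 in 39100 and 0.21 in 39095. The medians of each of the 5 had the sign seen in the 3 males. In 39100 the falling genes hardly moved, with quartiles of -0.25 and 0.09. There 61.9% of them were lower, where 49.2% of all genes tested were. Animals 39090 and 39097 moved most and animals 39095 and 39100 least.

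A difference of the change between the 2 run groups was tested directly. By edgeR 0 genes (0%) passed, with 1720 at an unadjusted p under 0.05, while DESeq2 called 250, of which 231 changed more negatively in the GL07 animals. Between males and females 0 genes (0%) passed by edgeR, with 379 at an unadjusted p under 0.05, and 0 by DESeq2. With run tag as a further term in the joint fit of the 80 libraries, 2272 genes were called higher and 2782 lower. Run tags vary within day 14 and within day 10, where GL08 is carried by males 39102, 39103 and 39104 and not by the other animals. That fit takes the run effect to be the same on both days and in all animals, which was not tested.

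The make-up of the libraries changed along with the called genes. On day 14 the 10 most abundant genes of each library took 7.23% to 10.98% of its counts (median 9.10%), and on day 17 they took 6.76% to 9.42% (median 7.12%). The share fell in 8 of 8 animals, by a mean of 1.62 ± 1.30 percentage points (SD, n = 8; exact two-sided sign-flip permutation test, p = 0.00781, the smallest that 256 flips allow, adjusted p = 0.013 over 5 tests). The share of the 100 most abundant genes fell by 3.84 ± 2.63 points, also in 8 of 8 animals (exact permutation p = 0.00781, adjusted p = 0.013). Day 14 libraries were thus more strongly dominated by a few transcripts.

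Fewer genes lay above 1 CPM on day 14, a cutoff relative to the library total and not a limit of detection. The number above 1 CPM ran from 11541 to 12888 on day 14 and from 12633 to 12787 on day 17, and rose in 7 of 8 animals by a mean of 533 ± 468 (SD, n = 8; exact permutation p = 0.0234, adjusted p = 0.0234). Day 17 libraries were nearly alike in this respect, and the day 14 libraries of animals 39090, 39104 and 39103 were lowest. The trimmed-mean scaling factor (TMM), which falls where a few genes take up much of a library, was between 0.68 and 1.13 on day 14 and between 1.01 and 1.19 on day 17, higher on day 17 in 8 of 8 animals (exact permutation p = 0.00781, adjusted p = 0.013). The part of library make-up and depth in the gene calls was not tested. Within the 3 animals of 1 run tag, the top-10 share fell by 1.66 points and the count above 1 CPM rose by 694, and in the other 5 animals the values were 1.59 and 437.

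Falling genes had a median level of 6.08 log2 CPM over the libraries, rising genes one of 4.02 and all genes tested one of 3.52. Falling genes held 29.02% to 50.4% of all counts on day 14 (median 40.3%) and 23.9% to 32.9% on day 17 (median 28.2%). Animal 39090 had the highest share on day 14 and animal 39100 the lowest. Rising genes held 1.88% to 5.47% on day 14 and 5.00% to 7.23% on day 17. Genes had been chosen in these libraries, so the shares describe how much RNA the called sets involve and are not a test.

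Genes were also grouped by their mean level over all 80 libraries. Among 712 genes at 8 log2 CPM or more, 41.4% were called lower and 1.404% higher on day 17. Among 2395 genes from 6 to 8 log2 CPM, 24.7% were called lower and 6.81% higher. Between 2 and 4 log2 CPM the order was the reverse, with 15.3% of 2987 genes called higher and 5.96% lower. Below 0 log2 CPM, where 3654 genes lie, 1.61% were called higher and 3.15% lower. Shares called higher were greatest in the middle bands and shares called lower in the top band.

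**Figure D3:**
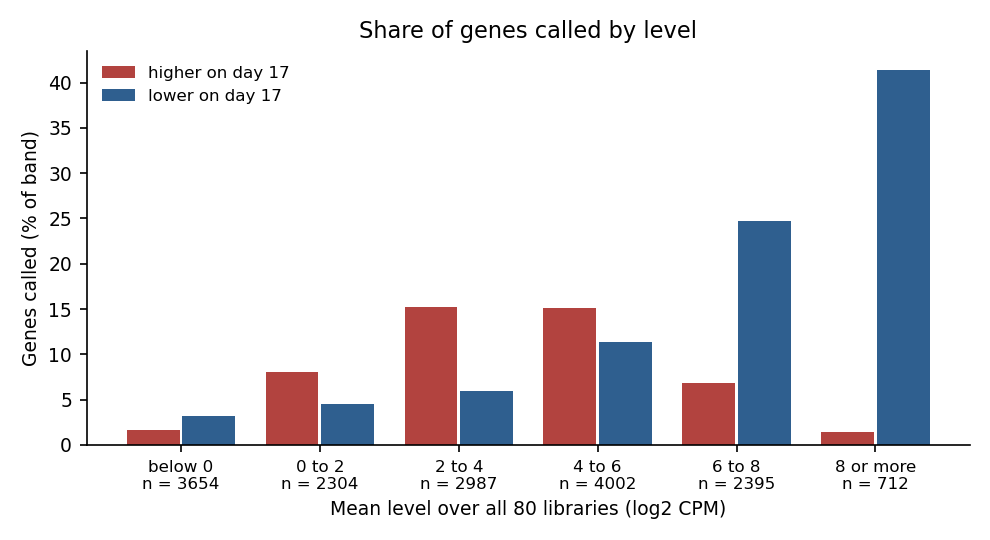
Share of genes called higher and lower on day 17 within bands of mean level over all 80 libraries (log2 CPM), with the number of genes in each band under the axis. The share called lower reached 41.4% in the band of 8 or more, and the share called higher was greatest between 2 and 6.

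That split depends on the scaling, since the median of all genes shifted by 0.43 log2 units once counts were scaled by library totals, against 0.06 with TMM factors. Under library totals 5247 genes were called higher and 699 lower. Each of the 1481 rising genes was then still called higher. Of the 1735 falling genes, 1561 were still lower, 689 of them called, and 174 were higher with 0 called. The median change of genes from 6 to 8 log2 CPM was -0.16 with TMM factors and 0.21 with library totals, and that of genes at 8 or more was -0.38 and -0.01. With upper-quartile factors 1934 genes rose and 1484 fell, and 1481 of the 1735 falling genes were still called lower.

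Identifiers named here are the 2 with the largest and the 2 with the smallest log2 fold change among called genes with a mean of at least 2 log2 CPM over the 16 libraries and 1 direction in at least 7 of 8 animals, a condition met by 1153 rising and 1455 falling genes. They were chosen for their size, and each averaged under 2 log2 CPM on its lower day and met the minimum through the other day, so their changes are a description. ENSMFAG00000057175 stood at -0.38 to 2.93 log2 CPM on day 14 (median 1.93) and at 2.40 to 3.72 on day 17 (median 3.17). It rose 2.70-fold, by 1.43 on the log2 scale (SE 0.27, edgeR adjusted p = 0.018), in 8 of 8 animals, and the 2 days overlapped. ENSMFAG00000044542 stood at -0.25 to 3.32 log2 CPM on day 14 (median 1.55) and at 1.72 to 3.21 on day 17 (median 3.02). It rose 2.60-fold, by 1.38 (SE 0.35, edgeR adjusted p = 0.026), in 7 of 8 animals, and fell by 0.52 in animal 39095, which had the highest level on day 14. Larger rises among called genes, up to 4.22, were in genes under 2 log2 CPM or with fewer animals of 1 direction.

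Falling identifiers went from high to much lower levels in some animals and moved by less than 1 log2 unit in others. ENSMFAG00000001064 ran from 0.35 to 9.45 log2 CPM on day 14 (median 4.42) and from -0.84 to 2.23 on day 17 (median 0.94). Its raw counts went from 9073 to 126 in animal 39090, from 3509 to 76 in 39104 and from 3025 to 101 in 39097, but from 37 to 23 in 39100 and from 22 to 45 in 39095. The fitted log2 change was -4.06 (SE 0.93, edgeR adjusted p = 0.021), lower in 7 of 8 animals. Its fitted size ranged from -6.03 without the animal block to -3.51 without animal 39090, with -5.53 by limma voom and -5.75 in the joint fit of the 80 libraries. On day 14 it thus spanned more than 9 log2 units between animals, and on day 17 about 3.

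ENSMFAG00000032685 ran from 0.35 to 9.35 log2 CPM on day 14 (median 4.11) and from -2.19 to 3.26 on day 17 (median 0.20). Animal 39104 went from 10197 counts to 5 and animal 39090 from 1463 to 39, whereas animal 39102 had 24 and 25 counts in libraries of different scaling. The fitted log2 change was -3.93 (SE 1.07, edgeR adjusted p = 0.031), lower in 8 of 8 animals. Its fitted size was -5.87 without the animal block, -5.54 by limma voom and -4.99 in the joint fit. Levels of day 14 lay in 2 clumps, 4 animals at 6.58 or more and 4 at 1.65 or less. Calls of the 4 identifiers were lost without 1 animal, and the adjusted p reached 0.058, 0.073, 0.063 and 0.088 in the order named, each time without 39103. They were also lost without 39102 (adjusted p 0.0512 to 0.0598) and, except for ENSMFAG00000057175, without 39090 or 39097 (adjusted p 0.0525 to 0.077). Within the 3 males of 1 run tag the changes were 1.48, 1.91, -5.23 and -5.17, of which the first and the last missed the threshold (adjusted p = 0.059 and 0.14).

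**Figure D4:**
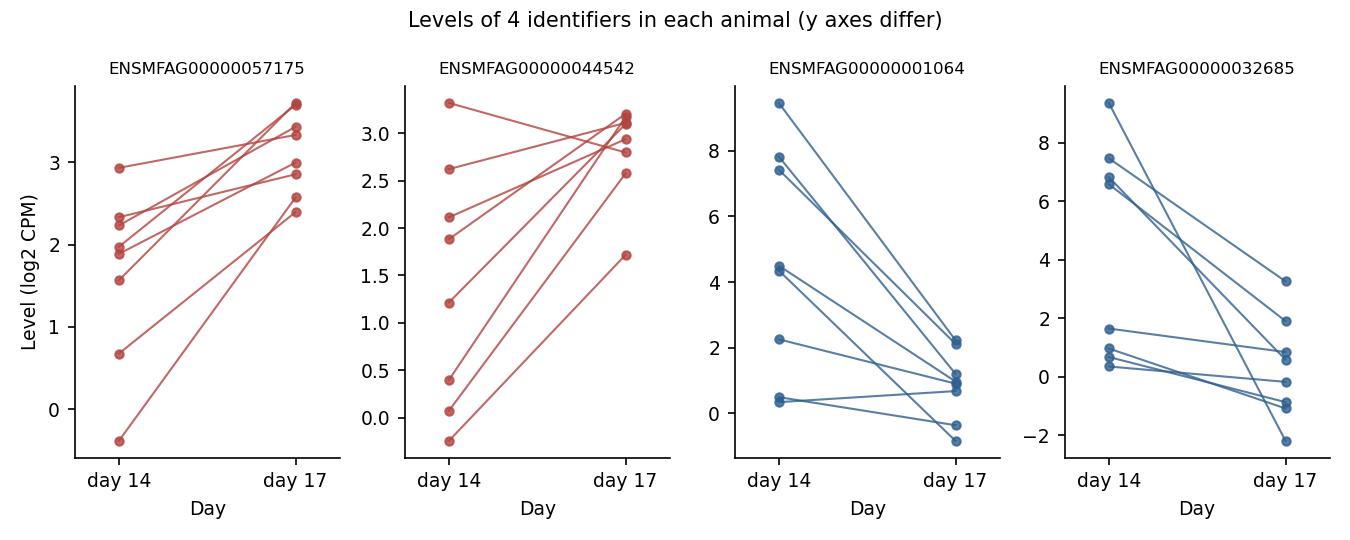
Level of the 4 named identifiers (log2 CPM) on days 14 and 17, with 1 line for each of the 8 animals; the vertical axes differ. Day 14 levels of the falling pair ran from below 1 to above 9, while those of day 17 stayed below 4.

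The same identifiers were read on days that had no part in choosing them. ENSMFAG00000001064 had a mean of 1.07 ± 1.51 log2 CPM (SD, n = 8) at day 0. It reached 4.69 ± 2.34 at day 8, was 4.28 ± 1.86 at day 10 and ended at 0.70 ± 0.99 at day 21. It was above day 0 on day 10 (log2 difference 3.17, SE 0.56, edgeR adjusted p = 0.0024) and lower on day 21 than on day 10 (-3.77, SE 0.36, adjusted p = 0.00028). On day 21 it was at -0.41 against day 0 (SE 0.34, adjusted p = 0.42). ENSMFAG00000032685 had a mean of -0.66 ± 1.37 log2 CPM at day 0, then 4.20 ± 4.04 at day 8, 2.72 ± 2.27 at day 10 and finally -0.88 ± 2.47 at day 21. It likewise passed the test on day 10 against day 0 (3.57, SE 0.64, adjusted p = 0.0025) and on day 21 against day 10 (-3.33, SE 0.66, adjusted p = 0.006). Against day 0 it stood at 0.11 on day 21 (SE 0.78, adjusted p = 0.94). Both were above day 0 by day 10, and their differences from day 0 at day 21 missed the threshold, which does not show that they were back at that level.

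Rising identifiers differed from each other in their course. ENSMFAG00000057175 had a mean of 2.82 ± 0.75 log2 CPM at day 0, then 2.10 ± 0.56 at day 10, 1.65 ± 1.05 at day 14, 3.13 ± 0.50 at day 17 and finally 2.88 ± 0.55 at day 21. It was below day 0 on day 10 (-0.73, SE 0.20, edgeR adjusted p = 0.02) and differed from day 0 by 0.04 on day 21 (SE 0.14, adjusted p = 0.86). ENSMFAG00000044542 began at 1.96 ± 0.62 and had means of 2.67 ± 0.66 at day 10, 1.42 ± 1.28 at day 14, 2.83 ± 0.50 at day 17 and 2.67 ± 0.42 at day 21. It was above day 0 on both day 10 and day 21 (0.71 and 0.70, SE 0.23 and 0.22, edgeR adjusted p = 0.048 and 0.027). Day 21 differed from day 10 by -0.02 (SE 0.19, edgeR adjusted p = 0.95). Its mean was lower on day 14 than on either neighbouring day. Days 14 and 17 chose both rising identifiers, so their means on those days restate the call, and no test of a low day 14 is drawn from them.

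Called sets were followed in the same way over the 9 later days, as the median over genes of each animal's log2 CPM minus its own day 0. For the genes called lower on day 17, the mean of the animal medians was 0.02 ± 0.10 (SD, n = 8) on day 1 and 0.02 ± 0.17 on day 3. It went to 0.20 ± 0.38 (day 4), -0.05 ± 0.27 (day 7), 0.46 ± 0.43 (day 8), 0.14 ± 0.32 (day 10) and 0.50 ± 0.55 (day 14). It was -0.20 ± 0.20 at day 17 and -0.19 ± 0.17 at day 21, with 7 of 8 animals below day 0 on both. On day 14, animals 39104, 39090, 39097, 39103 and 39102 stood 0.67 to 1.21 above their day 0, and 39098, 39100 and 39095 stood at 0.02, -0.22 and -0.19. Days 8 and 14 were the high points of this set, and the later days lay slightly under the starting level.

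For the genes called higher on day 17, the mean of the animal medians was within 0.03 of day 0 on days 1, 3 and 7. It stood at -0.17 ± 0.32 (day 4), -0.38 ± 0.32 (day 8), -0.10 ± 0.23 (day 10) and -0.46 ± 0.41 (day 14). It was 0.13 ± 0.16 on day 17 and 0.11 ± 0.12 on day 21. On day 8 the set was below day 0 in 8 of 8 animals and on day 14 in 7 of 8. Both sets thus lay farthest from day 0 on days 8 and 14, in opposite directions. Values of days 14 and 17 restate the call in both sets, and no test was made on these medians, which over all genes stayed within 0.04 of day 0 on every day with TMM factors. With library totals the value over all genes on day 14 was -0.29, that of the rising set -0.74 and that of the falling set 0.23.

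**Figure D5:**
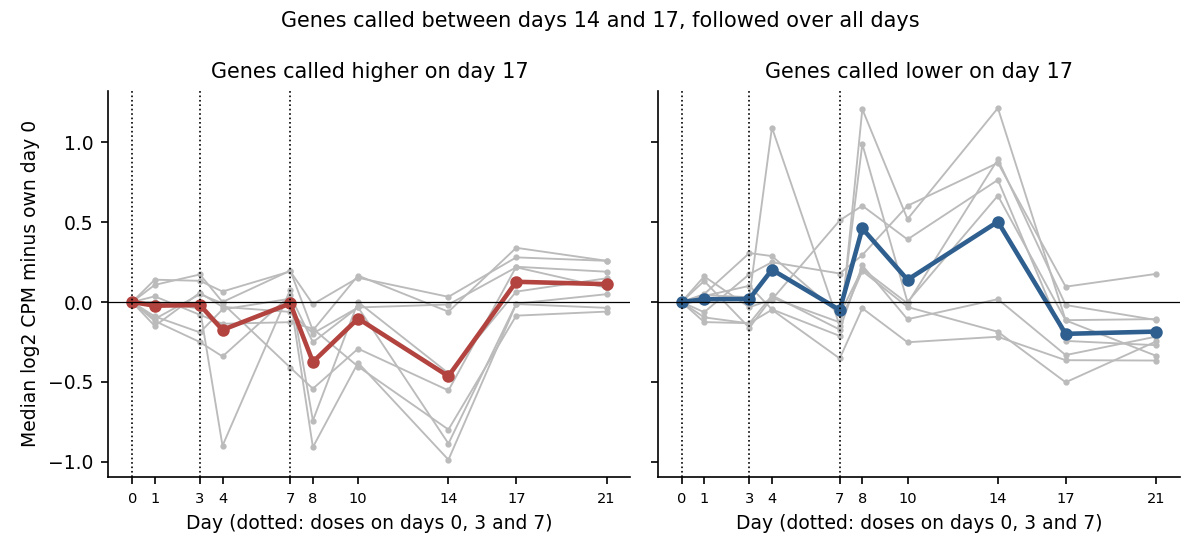
Median log2 CPM of the called genes minus the same animal's day 0 on each day, for genes called higher (left) and lower (right) on day 17; grey lines are the 8 animals, coloured lines their mean, dotted lines the dosing days. Animals spread widely on day 14 and lay close together on days 17 and 21.

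Fits of days 10 and 21 share no library with the comparison of days 14 and 17 and lie on either side of it, though the animals are the same. Over days 10 to 21 a rise was called for 1109 genes (6.91%) and a fall for 1655 (10.3%), together 17.2% of genes tested. Of the 1481 genes that had risen between days 14 and 17, 406 were called higher on day 21 than on day 10 (27.4%) and 19 lower. Of the 1735 that had fallen, 648 were called lower (37.3%) and 14 higher. Median log2 differences of day 21 from day 10 were 0.21 in the rising set, -0.30 in the falling set and 0.01 over all genes. The count of 2764 for this interval was 1822 without animal 39097, 898 without the animal block, and 1690 in the animals whose libraries of both days share a run tag. Under library totals 2394 genes were called higher and 1096 lower, and with upper-quartile factors 1741 and 1309.

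Day 10 was above day 0 in 2025 genes (12.6%) and below it in 1521 (9.47%), or 1339 and 1543 under library totals. Of the genes that later fell, 450 were called higher on day 10 (25.9%) and 56 lower. Of those that later rose, 238 were called lower on day 10 (16.1%) and 48 higher. Day 21 was above day 0 in 2011 genes (12.5%) and below it in 2434 (15.2%), or 2723 and 1839 under library totals. The falling set was then called lower in 613 of its genes (35.3%) and higher in 168 (9.68%), and the rising set was called higher in 278 (18.8%) and lower in 62 (4.19%). More than 1 in 3 of the falling genes were thus below day 0 at the end. Without the animal block 1939 genes passed for day 21 and 1987 for day 10 against day 0.

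Distance from the starting profile was smaller on day 17 than on day 14. The RMS log2 difference from the animal's own day 0 over all genes was 0.92 to 1.27 on day 14 (median 1.00) and 0.69 to 0.93 on day 17 (median 0.80). It fell in 7 of 8 animals, by a mean of 0.26 ± 0.20 (SD, n = 8; exact permutation p = 0.0156, adjusted p = 0.0195), and rose slightly in 39098. Both values of an animal use the same day 0 library. Within the 3 animals of 1 run tag it fell by 0.32 and in the other 5 by 0.23. On earlier days the RMS difference had been 0.64 to 0.80 (day 1), 0.72 to 1.34 (day 8) and 0.75 to 0.92 (day 10). Values like those of day 17 had thus been seen before day 14, and the fall was not part of a steady decline.

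Spread between animals was smaller on day 17. The SD between the 8 animals, taken per gene on log2 CPM, had a median of 0.59 on day 14 and 0.37 on day 17, and it was larger on day 14 in 83.1% of genes. Medians on the other days ran from 0.39 on day 21 to 0.53 on day 4. Among the 3 animals of 1 run tag the medians were 0.46 on day 14 and 0.29 on day 17, and among the other 5, whose day 14 libraries share GL08, 0.55 and 0.34. Day 14 had the greatest spread between animals of the 10 days and day 17 the smallest, and the narrowing was present within each run group.

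Fewer genes passed in the neighbouring intervals. Against day 10, day 14 was higher in 143 genes (0.891%) and lower in 159 (0.99%), 1.88% in all, or 113 and 530 under library totals. In all 8 animals these 2 libraries carry different run tags, from GL07 to GL08 in 5 animals and the reverse in 3, so no animal gives this difference within 1 run. That count of 302 was 32 without animal 39102, 48 without 39100, 72 without 39090, 77 without 39098, 123 without 39104, 134 without 39103 and 696 without 39097, 98 without the animal block, and DESeq2 called 1855. For days 17 and 21 edgeR called 0 genes (0%), with 684 at an unadjusted p under 0.05, or 3 without animal 39104, and DESeq2 called 12. The 2 intervals share libraries with the comparison of days 14 and 17 and are given as counts only. That the interval after day 17 differs from the one before it was not tested gene by gene.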

How the data were processed

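The authors deposited gene counts, whole numbers of reads per gene with no normalization, in 2 tables of the same 80 libraries (38550 and 35432 genes). For the aligner, the counter, the build and the use of strand, nothing is given in the sources used here. Per the labels' protocols, RNA came from PAXgene blood by the RNAdvance Blood kit, with KAPA HyperPrep mRNA libraries. The gene table of Macaca fascicularis lists no Ensembl identifiers, so those of the files could not be looked up, the marker lists could not be used, and reads shared by near-identical genes could not be traced. Totals ran from 17.1 to 80.2 M counts over the 80 libraries.

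Genes were kept with filterByExpr by day over all 80 libraries, which left 16054 (41.6%). TMM factors came from all 80 libraries. Every comparison used only the 16 libraries of its days, and animal entered as a block (edgeR 4.0.16 quasi-likelihood, R 4.3.3), with adjustment over all genes tested. SE is the absolute log2 fold change divided by the square root of the F statistic, and log2 CPM has a prior count of 2. Alternatives used DESeq2 1.42.0 and limma 3.58.1. The labels' animal numbers give the pairing: deviations of days 14 and 17 from the day means correlated over genes at a median r of 0.43 within an animal (lowest 0.13) and -0.08 between animals. On simulated data for day 17 against day 14 (16054 genes, 100 changed at each fold size, all above 2 log2 CPM), edgeR recovered 92% of 2-fold and 100% of 4-fold changes, with 5 false calls. The simulation drew genes independently, gave a changed gene the same fold in every animal and held no run tag effect. It checks that the fit runs as meant, and its rates cannot be carried over to the real comparison, where changes differed widely between animals.

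The 4 identifiers were named by their log2 fold change among genes past the threshold with a mean of 2 log2 CPM and 1 direction in 7 of 8 animals. A change in 5 measures per library was tested by exact sign flips over animals. Members, lists and tests were chosen with earlier results of these data known. The paired tests weigh the mean change within an animal against its variation from animal to animal. Each animal gave 1 library a day, so that variation also holds differences between libraries, run tag among them.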

Additional observations from a re-analysis of the deposited data

Results flagged for a closer look

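The level of ENSMFAG00000044542 on day 17 in animal 39090, 1.72 log2 CPM, lay apart from the other 7 animals, whose levels that day were 2.58 to 3.21. Its gap to the nearest animal was 0.577 of the whole range, above the limit of 0.526 for 8 values. Of 23 groups of values checked in this way it was the one that passed, and chance alone passes about 5% of groups. The same animal had the lowest level of this identifier on day 14.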

How the results depend on the processing

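Of 24 alternatives for the day 17 against day 14 count, 11 stayed within 1.5 times the 3216 reported (limma voom, upper-quartile factors, either low-count filter, the second table, sample weights, robust estimation and 4 omissions of 1 animal). The others gave 1889 genes without the animal block, 4916 by DESeq2, 5946 with library totals, 5482 in one fit over all 80 libraries and 5054 with run tag added to it. They gave 1001 in the 3 animals of 1 run tag, 0 in the other 5, 2 in females and 0 in males. Over all 8 omissions of 1 animal the count was 0 to 3611, and the 4 omissions beyond 1.5 times gave 0 to 883. Subsets hold fewer animals, and otherwise the cause was not tested. The run tag difference became 250 by DESeq2 and stayed at 0 in 10 other alternatives, and the sex difference stayed at 0 in 11. Without the animal block the counts were 898 for day 21 against day 10, 98 for day 14 against day 10, 1939 for day 21 against day 0 and 1987 for day 10 against day 0. For day 21 against day 10 the count was 1690 within 1 run tag and 1822 to 2856 with 1 animal left out. For day 14 against day 10 it was 1855 by DESeq2, 643 with library totals and 32 to 696 with 1 animal left out. Day 21 against day 17 gave 12 by DESeq2 and 0 to 3 with 1 animal left out. The block moved 1 call of the 4 identifiers, that of ENSMFAG00000044542 (adjusted p = 0.13 without it), which also missed with limma voom sample weights (adjusted p = 0.058). Chosen after seeing the data were robust estimation, sample weights, upper-quartile factors for both difference tests, the run tag subset of day 21 against day 10, other scalings of the called sets, and all alternatives for the other 4 pairs of days and the sample measures. Medians of the called sets on days 10 to 21 kept their sign under both other scalings. How depth limits the calls was not tested.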

Other observations

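With TMM factors, genes that fell between days 14 and 17 were also high in single libraries of earlier days. Under library totals the highest animal median of this set was 0.25 on day 4 and 0.34 on day 8. On day 4, 1 day after the second dose, their median in animal 39102 was 1.09 log2 units above its own day 0, while the other 7 animals were between -0.05 and 0.29. That library had a TMM factor of 0.66, a top-100 share of 27.99% and 11261 genes over 1 CPM. On day 8, 1 day after the third dose, animals 39104, 39102 and 39103 were at 1.21, 0.99 and 0.60, and the remaining 5 between -0.04 and 0.29. The libraries of those 3 animals had TMM factors of 0.64, 0.72 and 0.79 and top-100 shares of 28.7%, 26.9% and 25.8%. The part of library make-up in these medians was not tested. On day 10 animals 39097, 39104 and 39103 were at 0.60, 0.52 and 0.39, and the remaining 5 at 0.00 or below. Animal 39100 was under its day 0 on every later day, at -0.05, -0.04, -0.25 and -0.22 on days 4, 8, 10 and 14. It was at -0.13 on days 1 and 3, -0.35 on day 7, -0.36 on day 17 and -0.37 on day 21. All these values use the same day 0 library.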
